A study of Mus musculus with 4 samples.

Results

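The genes of the NF-kB subunits were measured in stimulated CD4 T cells with and without the microRNA miR-146a. The rule takes every probe set whose single gene symbol is Rel, Rela, Relb, Nfkb1 or Nfkb2. It found 5 of the 45037 probe sets that are not controls, and they cover 4 of the 5 named genes, out of 18193 genes with a probe set of their own: 1 probe set each for Rel, Rela and Relb, 2 for Nfkb2 and 0 for Nfkb1, which is not analysed here. The array was the Affymetrix Mouse Genome 430 2.0, on which a probe set is a group of short oligonucleotides read together as 1 signal. The 4 arrays held RNA of 2 wildtype and 2 miR-146a-deficient samples, all on the 2D2 Tg background, whose T cells bear a transgenic receptor that recognises a myelin peptide. Naive CD4 T cells had been sorted and stimulated for 3 days with plate-bound anti-CD3 (5 μg/ml) together with anti-CD28 (1 μg/ml), so both genotypes were activated and there was no unstimulated group. The labels call the arrays biological replicates without saying whether they came from separate mice, so p-values measure the spread between these samples. They give neither the sex nor the age of the mice, nor how the miR-146a deficiency was made.

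NF-kB is a dimer of Rel-family proteins that waits in the cytoplasm, held by IkB proteins, until an IkB kinase marks the inhibitor for destruction and the dimer enters the nucleus. In T cells the antigen receptor and CD28 start this route, while Toll-like and interleukin-1 receptors use Irak1 and Traf6. Rela and Rel carry the activating domain of the canonical route. Relb pairs mainly with the processed product of Nfkb2 in the slower non-canonical route. miR-146a is itself induced by NF-kB and is known to restrain it by targeting Irak1 and Traf6, and Relb is among the reported targets.

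The mature miR-146a-5p of mouse is shown because its loss is what separates the genotypes. Capitals mark its seed, bases 2 to 8, the stretch that pairs with target transcripts. RefSeq places it at chr11:43374435-43374456 on the minus strand of GRCm38.p6.
mmu-miR-146a-5p: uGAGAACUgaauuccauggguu
The seed is shared by 2 of the 1738 mature miRNAs in the RefSeq table, the other being mmu-miR-146b-5p. The annotation names 0 probe sets for Mir146, the miR-146a gene, which leaves the loss of the microRNA unchecked on these arrays.

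Some NF-kB subunit genes are known to be NF-kB targets, so their promoters were searched for the κB consensus, the sequence that NF-kB dimers bind. Each window runs from 250 bases before to 50 bases after a RefSeq start site on GRCm38.p6. Both strands were searched, overlapping matches were joined into 1 site, and capitals mark the sites. Rel (chr11:23770920-23771219, minus strand), Rela (chr19:5637291-5637590, plus strand) and the most upstream Nfkb2 start used (chr19:46304487-46304786, plus strand) are shown, since they hold 1, 0 and 2 sites. The annotated span of Nfkb2 begins further upstream, at 46300994, and no window there was used.
Rel: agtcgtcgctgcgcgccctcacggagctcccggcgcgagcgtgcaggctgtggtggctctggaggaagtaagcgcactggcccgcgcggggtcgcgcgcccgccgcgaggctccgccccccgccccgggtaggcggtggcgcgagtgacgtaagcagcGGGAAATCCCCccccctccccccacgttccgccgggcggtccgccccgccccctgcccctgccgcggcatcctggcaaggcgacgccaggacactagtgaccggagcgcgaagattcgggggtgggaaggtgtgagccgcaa
Rela: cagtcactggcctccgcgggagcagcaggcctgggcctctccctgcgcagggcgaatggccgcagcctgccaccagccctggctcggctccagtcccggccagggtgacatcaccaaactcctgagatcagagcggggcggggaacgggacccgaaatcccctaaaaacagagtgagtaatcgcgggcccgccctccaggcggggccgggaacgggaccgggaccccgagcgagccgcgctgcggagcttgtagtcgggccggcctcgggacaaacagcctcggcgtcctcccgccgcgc
Nfkb2: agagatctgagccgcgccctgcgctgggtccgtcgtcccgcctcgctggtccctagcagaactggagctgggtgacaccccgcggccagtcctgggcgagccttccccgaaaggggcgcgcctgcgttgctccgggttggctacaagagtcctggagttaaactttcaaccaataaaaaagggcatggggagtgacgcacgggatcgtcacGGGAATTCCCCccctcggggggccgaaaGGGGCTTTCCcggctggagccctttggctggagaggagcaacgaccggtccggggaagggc
In Rel the site spans -92 to -82 from the start. In the Nfkb2 window the sites span -39 to -29 and -11 to -2. The windows of the other Nfkb2 starts used, which overlap each other, hold 2 sites and 1 site. In all, 4 of the 5 windows used for these genes hold a match, beside 4.51% of the 32851 promoter windows of the table. The 5 are not independent: 3 are of Nfkb2, and its overlapping windows share 1 site. By gene, Rel and Nfkb2 hold a match and Rela does not, while windows of Relb and Nfkb1 were not used here. A match of letters is a description and does not show binding.

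No rise or fall was detected for any of the 5 subunit probe sets in the deficient cells. Their differences, deficient minus wildtype on the log2(signal + 14.7) scale, ran from -0.17 for Rel to 0.11 for Nfkb2, and the median over the 4 genes was 0.02. In limma's moderated test 0 of 5 passed an adjusted p of 0.05 and 0 of 5 had an unadjusted p below 0.05. Over all 27022 tested probe sets 0.167% passed and 5.45% had an unadjusted p below 0.05, so a count of 0 among 5 lies near the background. All 5 members were bright enough to be tested. The values below are MAS5 signals, a linear intensity scaled per array, and they are compared only within a probe set.

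**Figure D1:**
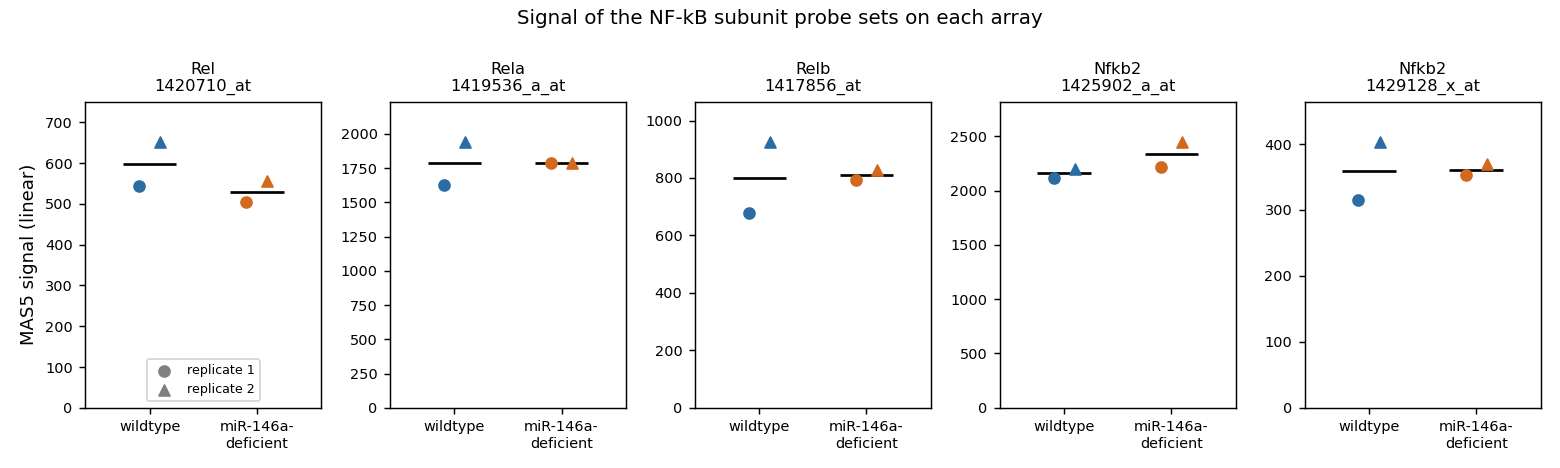
MAS5 signal (linear axis from 0, scaled separately in each panel) of the 5 probe sets on each array, with circles for replicate 1, triangles for replicate 2 and a line at the mean of each genotype. On Rela, Relb and the dimmer Nfkb2 probe set the deficient arrays lie between the wildtype arrays, and on the brighter Nfkb2 probe set they lie above them.

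Rel encodes c-Rel, the subunit of lymphocytes that drives cytokine genes such as Il2 after receptor stimulation. Its probe set, 1420710_at, read 545 and 652 in the wildtype arrays against 504 and 555 in the deficient arrays. The lowest array was a deficient one and the highest a wildtype one, but deficient replicate 2 lay just above wildtype replicate 1, so the genotypes overlapped. The difference was -0.17 ± 0.15 (SE; limma, adjusted p = 0.964), a 0.890-fold level with a 95% interval from 0.706 to 1.12.

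Rela encodes p65, the main activating subunit of the canonical route. Its probe set, 1419536_a_at, read 1625 and 1942 in the wildtype arrays against 1789.65 and 1784 in the deficient arrays. The deficient arrays lay between the wildtype arrays and close to each other. The genotype means were 1783 ± 224 and 1787 ± 4.1 (SD, n = 2 each), a difference of 0.01 ± 0.12 (limma, adjusted p = 0.999), with a fold interval from 0.834 to 1.21.

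Relb encodes the subunit of the non-canonical route and stands among the reported targets of miR-146a. Its probe set, 1417856_at, read 676 and 926 in the wildtype arrays against 792 and 827 in the deficient arrays. Here too the deficient arrays lay between the wildtype arrays, which differed from each other by 0.45 on the log2 scale. The genotypes differed by 0.03 ± 0.16 (limma, adjusted p = 0.995), with a fold interval from 0.793 to 1.32.

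Nfkb2 encodes p100, which acts as an inhibitor until it is cut to p52, the partner of Relb. Its brighter probe set, 1425902_a_at, read 2120.2 and 2200.1 in the wildtype arrays against 2216 and 2450.0 in the deficient arrays. Both deficient arrays lay above both wildtype arrays, but deficient replicate 1 by little. The difference was 0.11 ± 0.10 (limma, adjusted p = 0.966), a 1.08-fold level with an interval from 0.915 to 1.27. The dimmer probe set, 1429128_x_at, whose suffix marks oligonucleotides that can also bind other transcripts, read 315 and 404 against 353 and 369.8. Its deficient arrays lay between the wildtype arrays, with a difference of 0.02 ± 0.17 (limma, adjusted p = 0.997). The 2 probe sets of the gene thus did not share the separation of the genotypes.

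Among the 5 members, wildtype and deficient arrays did not overlap for 1, the brighter Nfkb2 probe set, where 34.1% of all tested probe sets did not overlap. For 3 of 5, both deficient arrays lay between the wildtype arrays, as they did for 17.8% of all tested probe sets. An exact two-sided permutation test over the 4 arrays has 6 splits and cannot give a p below 0.333. It gave 0.333 for Nfkb2, 0.667 for Rel and 1 for both Rela and Relb.

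For 4 of the 5 probe sets the wildtype arrays differed from each other by more than the genotypes did. This was also the general pattern. Over all tested probe sets the median absolute step between the wildtype arrays was 0.20, and the median absolute genotype difference was 0.14. Within the members' range of mean log2 signal these medians were 0.14 and 0.10. All 5 probe sets were higher in wildtype replicate 2 than in wildtype replicate 1, by 0.05 for the brighter Nfkb2 probe set, 0.25 for Rel, 0.26 for Rela, 0.34 for the dimmer Nfkb2 probe set and 0.45 for Relb. The exception was the brighter Nfkb2 probe set, whose step was smaller than its genotype difference of 0.11. Of all tested probe sets 46.6% were higher in wildtype replicate 2, and of the 7680 within the members' range of mean log2 signal 53.5% were. The deficient arrays lay closer together than the wildtype arrays on 4 of the 5, with Rela at -0.00459, and further apart on the brighter Nfkb2 probe set, at 0.14. Over all tested probe sets the median absolute step between the deficient arrays was 0.19, close to the 0.20 of the wildtype arrays. The array's control probe sets at the 3' and 5' ends of transcripts, whose ratio reflects RNA integrity, gave the highest ratios in wildtype replicate 2, at 2.74 for the transferrin receptor, 0.808 for Gapdh and 1.30 for beta-actin. Their part in the step between the wildtype arrays was not tested.

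**Figure D2:**
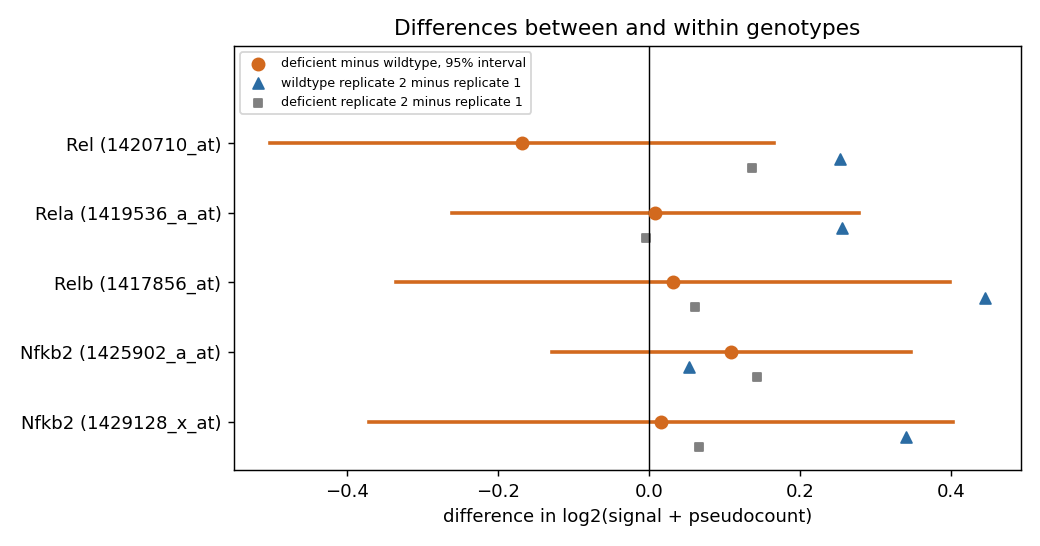
Differences on the log2(signal + pseudocount) scale for each subunit probe set: deficient minus wildtype with its 95% interval (orange), the step between the wildtype arrays (blue triangles) and the step between the deficient arrays (grey squares). Every interval spans 0, and all 5 blue triangles lie above 0, from 0.05 to 0.45.

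Which wildtype array was kept set the sign for 3 probe sets. Without wildtype replicate 1, which leaves 1 wildtype array, Relb read -0.19, Rela -0.12 and the dimmer Nfkb2 probe set -0.15; without wildtype replicate 2 they read 0.25, 0.14 and 0.19. Over the 15 alternatives tried Rel ran from -0.30 to -0.04 and the brighter Nfkb2 probe set from 0.04 to 0.19. For the latter, whose genotypes do not overlap, leaving out an array cannot turn the sign. No member passed the adjusted threshold in any alternative.

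Ratios between subunit genes on the same array remove what an array shares across genes. For the 6 pairs of the 4 genes they are given relative to their wildtype mean, on the log2 scale. Rel over Rela was 0.00 and 0.00 in the wildtype arrays to 2 decimals against -0.25 and -0.11 in the deficient arrays, a difference of -0.18. Here the wildtype arrays matched and both deficient arrays were lower. Rel over Relb was 0.10 and -0.10 against -0.24 and -0.16, a difference of -0.20. Nfkb2 over Rel was 0.10 and -0.10 against 0.27 and 0.28, a difference of 0.28. In these 3 ratios, all with Rel, the genotypes did not overlap, where 37.2% of all other tested genes did not overlap in their ratio to Rel. In ratios to Nfkb2, Rela and Relb that share was 38.7%, 24.7% and 16.5%.

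The remaining 3 ratios, among Rela, Relb and Nfkb2, overlapped, with differences from -0.02 to 0.10. The exact permutation p was 0.333, the smallest the design allows, for the 3 ratios with Rel, and no adjustment over the 6 pairs can bring it below a threshold of 0.05. With 1 array left out, the difference in Rel over Rela ran from -0.25 to -0.11. A ratio of this kind shows an unequal difference and not which of both genes differed.

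**Figure D3:**
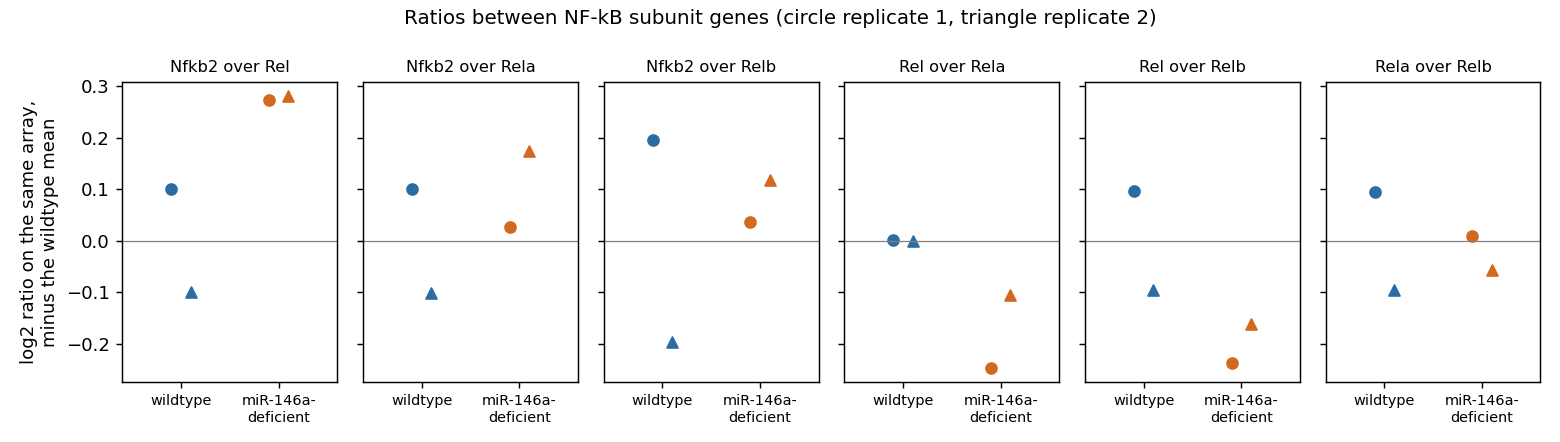
Log2 ratio of each pair of subunit genes on the same array, minus the mean of the wildtype arrays, with circles for replicate 1 and triangles for replicate 2. The genotypes separate in the 3 panels that hold Rel and overlap in the other 3.

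Rel, Relb and Nfkb2 are known to be transcribed in B cells and dendritic cells too, so markers of these cells were read beside the subunit genes. The labels describe a sort for naive CD4 T cells before culture, a step that should remove such cells. Cd3d, a chain of the CD3 complex of T cells, read from 16065 to 17736 over the 4 arrays and Cd4 from 462 to 725, and 0 of 10 tested T cell markers passed the test, with 0 at an unadjusted p below 0.05. The smallest unadjusted p of these belonged to Cd5 at -0.16 ± 0.12, Cd247 at 0.09 ± 0.11 and Cd28 at 0.10 ± 0.16. All 10 were higher in wildtype replicate 2 than in wildtype replicate 1. All 16 tested B cell markers were higher in both deficient arrays than in both wildtype arrays, beside 15.9% of all tested genes. Of these 5 rose (Ms4a1, Blnk, Cd22, H2-Aa and H2-Eb1), beside 0.164% of all tested genes. Their summed signal over 17 genes was 8981 and 13110 in the wildtype against 26501 and 27275 in the deficient arrays. Wildtype replicate 2 thus had more B cell signal than wildtype replicate 1. It also had more signal on all 10 tested T cell markers and on every subunit probe set. The deficient arrays had more B cell signal still. They read lower than wildtype replicate 2 on Rel, Rela, Relb and the dimmer Nfkb2 probe set, and higher on the brighter Nfkb2 probe set. No B cell marker was at 0. Pax5, a defining factor of B cells, was too dim to be tested and went the other way. It read 68.9 and 23.9 in the wildtype against 11.3 and 21.9 in the deficient arrays, lower in both. Of the dendritic and myeloid markers 3 of 8 tested rose, Ccl22, Cybb and Ly86. The macrophage genes Lyz2, Adgre1 and Cd68 read lower, at -0.52 ± 0.36, -0.47 ± 0.36 and -0.16 ± 0.22, and did not pass. The list's median of 1.04 turned to -0.18 without the filter on dim probe sets. Its summed signal over 14 genes was 1408 and 1328 against 3161 and 4085, of which Ccl22 made up 549 and 420.2 against 1625 and 2053. Both counts of genes that rose went to 0 without the filter on dim probe sets and without the intensity trend of the fit. Of the CD8 and NK cell markers 0 of 8 passed (limma) and 4 had an unadjusted p below 0.05, beside 5.41% of all tested genes. All 8 were higher, beside 47.5% of all tested genes, with a median of 0.60 beside -0.01. The smallest unadjusted p belonged to Klrk1, at signals of 230.5 and 152 against 358 and 489, then to Nkg7, at a difference of 0.56 ± 0.14, and Eomes, at 0.87 ± 0.27. The part of these cells in the subunit signals was not tested. In such bulk samples, fewer cells of a type and less RNA per cell cannot be told apart.

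Genes upstream of the subunits did not pass the test either. On the list of the IkB kinase and its activators, 0 of 20 tested genes rose or fell (limma), beside 0.172% of all genes, and 3 had an unadjusted p below 0.05, beside 5.41%; 15 were lower and 5 higher, with a median of -0.10 beside -0.01 over all genes. In 6 of 20 the arrays did not overlap, each time with the deficient arrays lower, where 17.7% of all genes were lower in this way. The median kept its sign with median centring, at -0.02. That setting moved the median of all tested probe sets from -0.03 to 0.06.

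Malt1, a protease that acts between the antigen receptor and NF-kB, read 2219 and 2548 against 1853 and 1925. Both deficient arrays were lower, a difference of -0.33 ± 0.11 that did not pass (limma, unadjusted p = 0.0161, adjusted p = 0.752). Its other tested probe sets were lower in both deficient arrays too, at -0.39 ± 0.18 and, on a dim one, -0.63 ± 0.38. Neither of them passed. Prkcq, a kinase activated by the antigen receptor and CD28, differed by -0.29 ± 0.12 (limma, adjusted p = 0.885). Irak1 was 2848 and 2712 against 885 and 2077 on its brightest probe set, a difference of -1.03 ± 0.31 (limma, adjusted p = 0.680), while its other 3 probe sets lay between -0.16 and 0.08. Without deficient replicate 2 this probe set passed (-1.63, adjusted p = 0.00771), a test of the 1 remaining deficient array in which the spread comes from the wildtype pair. Without deficient replicate 1 it read -0.42 (adjusted p = 0.669), and over the alternatives the adjusted p ran up to 0.874.

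Genes of the IkB proteins and other inhibitors had 0 of 13 past the threshold (limma), beside 0.172% of all genes. An unadjusted p below 0.05 was reached by 2 of them, beside 5.41% of all genes. Of the 13, 10 were higher, with a median of 0.07 that turned to -0.06 without wildtype replicate 1. Nfkbie, which encodes IkB epsilon, an inhibitor that is itself induced by NF-kB, read 926 and 915 against 1124 and 1649.8. Both deficient arrays were higher but far apart. The difference of 0.56 ± 0.17 did not pass the threshold (limma, adjusted p = 0.705). Its other probe set gave 0.37 ± 0.20. Nfkbib, which encodes IkB beta, differed by 0.37 ± 0.15 (limma, adjusted p = 0.889), with a sign that turned to -0.069 in the mean of its probe sets. Tnfaip3, the deubiquitinase A20 that shuts NF-kB signalling off, read 1657 and 2152 against 1870.2 and 2245, a difference of 0.12 ± 0.15 (limma, adjusted p = 0.979). That sign turned too, to -0.070 without wildtype replicate 1 and to -0.014 without deficient replicate 2.

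Nuclear cofactors of NF-kB had 0 of 12 past the threshold (limma), beside 0.172% of all genes. An unadjusted p below 0.05 was reached by 0 of them, beside 5.41% of all genes, and their median was -0.04. The smallest unadjusted p belonged to Sirt1, a deacetylase of p65, at -0.17 ± 0.13, to Irf4, a factor that cooperates in activated T cells, at -0.15 ± 0.13, and to Pdlim2, a ubiquitin ligase for nuclear p65, at -0.14 ± 0.13. Irf4 read 0.030 without wildtype replicate 2. The NFAT genes, whose products share the Rel-homology fold, likewise had 0 of 5 past the threshold and 0 with an unadjusted p below 0.05, with a median of -0.03. On the brightest probe set of each gene, Nfatc2 differed by -0.17 ± 0.12, Nfatc3 by -0.10 ± 0.11 and the dim Nfatc4 by 0.40 ± 0.36. Their other tested probe sets were dimmer or read otherwise. They gave -0.79 ± 0.44 and 0.00 ± 0.36 for Nfatc2, -0.77 ± 0.28 for Nfatc3 and -1.35 ± 0.63 for Nfatc4. That of Nfatc3 had an unadjusted p of 0.0226 and did not pass (limma, adjusted p = 0.824). With median centring the medians of both groups were above 0, at 0.05 each, where the median of all tested probe sets was 0.06.

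Among genes that NF-kB is known to induce, 2 of 29 tested rose and 0 fell, beside 0.164% and 0.0078% of all genes. The list has 3 of the subunit genes on it, and its median was 0.12, with 20 higher and 9 lower. In 14 of 29 the genotypes did not overlap, 12 higher and 2 lower, where 33.6% of all genes did not overlap. Ccl22, a chemokine of dendritic cells and B cells, rose from 549 and 420.2 to 1625 and 2053 (1.89 ± 0.17; limma, adjusted p = 0.00532). It is also on the dendritic and myeloid marker list. Il2, the T cell growth factor and a target of c-Rel, read 2046 and 1692 against 3494 and 3906 and rose by 0.98 ± 0.12 (limma, adjusted p = 0.0272), while Rel itself read -0.17. The Il2 call was lost without deficient replicate 1 or without deficient replicate 2 (1.06 and 0.90, adjusted p = 0.0696 and 0.173), and both calls were lost without the intensity trend and without the filter on dim probe sets.

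The list of reported miR-146a targets, which includes Relb, had 0 of 11 past the threshold (limma), beside 0.172% of all genes. An unadjusted p below 0.05 was reached by 2 of them, Irak1 and Fas, beside 5.41% of all genes. The list had 4 higher and 7 lower, with a median of -0.06 that ran from -0.19 to 0.10 over the alternatives. Fas, a death receptor, read 898 and 847 against 1014 and 1341, a difference of 0.41 ± 0.15 (limma, adjusted p = 0.824) that was 0.21 without deficient replicate 2 and 0.61 without deficient replicate 1. Notch1, which encodes a cell surface receptor that acts in the nucleus after cleavage, differed by -0.23 ± 0.12 (limma, adjusted p = 0.927).

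**Figure D4:**
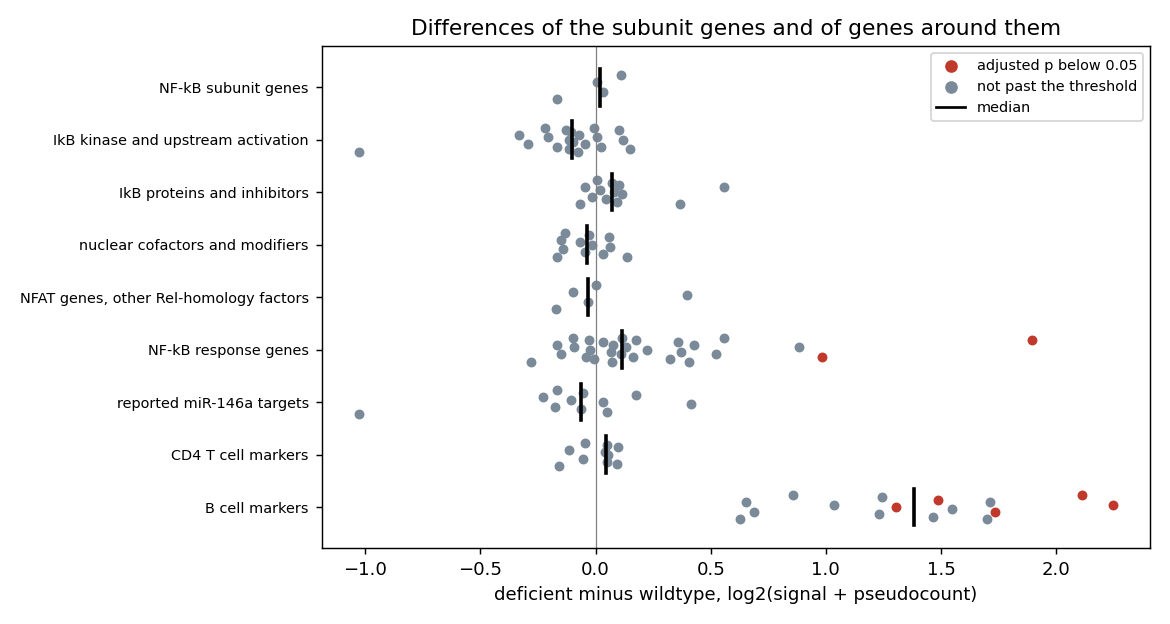
Deficient minus wildtype difference on the log2(signal + pseudocount) scale for the brightest probe set of each tested gene, by list, with red for an adjusted p below 0.05 and a black bar at the list's median. The 4 subunit genes lie between -0.17 and 0.11, while the 16 B cell markers lie from 0.63 to 2.25.

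Likeness of pattern was measured as the root mean square difference of log2 values over the 4 arrays, each gene centred on its own mean. The closest genes were Id3, an inhibitor of E protein factors, and 6330415G19Rik for Rel (0.00391 and 0.0129), Zc3h7a and Ccdc107 for Rela (0.00843 and 0.011), Specc1l and Saysd1 for Relb (0.00967 and 0.0106) and Malsu1 and Raly for Nfkb2 (0.00915 and 0.00941). With 4 arrays many genes come close: of 12820 compared, 464 lay within 0.05 of Rela, 422 of Nfkb2, 202 of Rel and 77 of Relb. No subunit gene was among the closest of another.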

How the data were processed

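The deposited table gives 1 linear intensity per probe set and array, which the authors made with MAS5 and the Transcriptome Analysis Console, per the submitters' processing notes; versions, detection calls and scan batches are not given in the sources used here. Every array has a 2% trimmed mean of 500.0, so values were already scaled. Of 45101 probe sets, 64 controls were left out; of the others 34945 have 1 symbol in the platform annotation, 932 several and 9160 none, and the last 2 kinds were not named.

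Signals became log2(signal + 14.7), the 25th percentile of all values being the pseudocount, which understates folds of dim genes. Probe sets with a mean log2 at or above the 40th percentile (5.48) were fitted, 27022 in all, with limma 3.58.1 in R 4.3.3 (lmFit, eBayes with intensity trend), two-sided, Benjamini-Hochberg over all of them, threshold 0.05. The moderated test had 8.39 degrees of freedom, 2 from the arrays. The fit was tested on simulated data. A gene with several probe sets is represented by its brightest (12821 genes). List members were named if they passed, otherwise the 3 with the smallest p. Cd3d, Cd4, Pax5, Lyz2, Adgre1, Cd68, Mpeg1, Csf1r and the untested dendritic and myeloid markers were named outside this rule, with their values seen. The members, lists and naming rule were chosen with earlier results of these data known; 122 of the 149 genes on the 10 lists were tested. Alternatives covered pseudocount, filter, scaling, variance prior, probe set summary, replicate number as a block and each array left out; ratios between subunits under them were added after the data were seen. Median signals ran from 48.7 to 57.7, ratios of 3' to 5' control signal from 1.92 to 2.74 for the transferrin receptor, and array correlations across probe sets from 0.981 to 0.984. The number of arrays limits the precision. Figures were drawn with matplotlib 3.10.9.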

Additional observations from a re-analysis of the deposited data

How the results depend on the processing

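The count of 0 subunit probe sets past the threshold held in all 15 alternatives and at an adjusted p of 0.10. Leaving out 1 array moved the brighter Nfkb2 probe set from 0.04 to 0.18, the dimmer one from -0.15 to 0.19, Rel from -0.30 to -0.04, Rela from -0.12 to 0.14 and Relb from -0.19 to 0.25; the dimmer Nfkb2 probe set also turned negative without deficient replicate 2 (-0.02). The 45 probe sets called in all became 4 without a filter, 88 with median centring, 0 without the intensity trend (1651 with an unadjusted p below 0.05), 23 with the brightest probe set of each gene, 14 with the mean of probe sets, and 29 to 152 with 1 array left out; the cause was not tested. The labels do not say that replicate numbers pair the samples, and the steps between same-genotype arrays correlated at only 0.04 across probe sets; with the replicate number as a block 71 probe sets were called and 0 of the 5 subunit probe sets. Among genes of the lists, Cd247 (-0.057) and Nfkbib (-0.069) turned with the mean of probe sets. With 1 array left out Cd28 ran from -0.13 to 0.33, Irf4 from -0.33 to 0.030, Nfatc4 from -0.025 to 0.82 and Tnfaip3 from -0.070 to 0.30. Of the other values of single list genes under the alternatives, 394 kept direction and side of the threshold, 28 lost it and 3 gained it. Dim probe sets such as that of Nfatc4 lie near background.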
